A study of Mus musculus with 17 samples.

Results

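The response of the control hippocampus to an acute injection of the convulsant pentylenetetrazole (PTZ), an antagonist of GABA-A receptors, was measured by comparing Control PTZ45 with Control Sal mice. By their labels, 2 PTZ45 and 3 Sal libraries of total RNA entered the comparison, 5 of the 17 libraries of the series, and each came from the hippocampus of a male C57BL/6 mouse aged 3 to 6 months. All were littermates of the forebrain CBP knock-outs (CBP-ifKO), in which Cre recombinase under a Camk2a promoter removes the lysine acetyltransferase CBP from excitatory neurons after tamoxifen. Controls received tamoxifen too and, according to the methods of the study, did not carry the transgene, although the description in the labels names Camk2a_creERT2 for them as well. PTZ45 mice had been kindled with repeated PTZ and a week later received 45 mg/kg PTZ, 45 min before dissection. Sal mice had not been kindled and received saline 45 min before dissection, so that the kindling history and the last injection cannot be told apart in this comparison. Control PTZ0 mice (3 libraries), which had been kindled and received saline on the last day, are given beside the results. The PTZ45 libraries were run in lane 4 and the Sal and PTZ0 libraries in lane 3 of the sequencer, and lane and PTZ45 cannot be told apart either.

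Strong neuronal activity raises calcium and cAMP in the neuron and activates kinases that phosphorylate transcription factors already in place, such as CREB, SRF and its Elk partners. These switch on immediate early genes, which need no new protein. The products of these genes include transcription factors (Fos, Egr and Nr4a families, Npas4), which go on to drive later genes, enzymes that dampen the kinases and destabilize the mRNAs, and proteins that act directly at synapses, such as Arc. The hippocampus is among the tissues in which this response to seizures is best known.

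Libraries held 9998091 to 15512418 counts in Sal and 12052333 to 14483561 in PTZ45. The defining markers of granule cells of the dentate gyrus, pyramidal neurons of CA1 and CA3, interneurons, astrocytes, oligodendrocytes, microglia and vessels were present in every library. Of their 95 genes tested 0 were called in the comparison described below (0 at an adjusted p under 0.05 by DESeq2). Over all genes tested 0.939% were higher and 0.236% lower, so 0 of 95 does not show that the cell composition was equal. The microglia markers summed to 3932 to 4304 normalized counts in Sal, 3960 to 4212 in PTZ0 and 3600 and 3840 in PTZ45, with 2 of 12 log2 fold changes above 0 and a median of -0.25. Both PTZ45 sums lay below all others. These markers had a median exonic GC content of 52.2%, against 48.0% over all genes tested. After the GC correction described below their median log2 fold change was -0.19. Oligodendrocyte markers and those of CA3 and CA2 each had 3 of 12 log2 fold changes above 0 (medians -0.13 and -0.14), and interneuron markers 8 of 12 (0.02). Fewer cells of a type and less RNA per cell cannot be told apart in bulk tissue, and the part of GC content was not tested. Markers of choroid plexus and ependyma summed to 657, 11814 and 910 normalized counts in Sal 1, 2 and 3 and to 1147 and 1075 in PTZ45 1 and 2, so Sal 2 stood apart. Its leading gene, Ttr, had 10013 normalized counts in Sal 2 and 183 to 562 in the other libraries compared. Of the 11 choroid plexus markers with an adjusted p, 0 were called, which says little given this spread within Sal. Counts without Sal 2 are given below. Crebbp, which encodes CBP, had 1862, 2197 and 2467 normalized counts in Sal and 2480 and 2295 in PTZ45 and was not called (adjusted p 0.892).

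Of 17367 genes with an adjusted p, 163 were higher in PTZ45 than in Sal, or 0.939% of the genes tested, and 41 were lower, or 0.236%. At least 2-fold higher were 76 genes (0.438%). The response was thus mostly upward, and its largest members were transcription factors of the immediate early class. Npas4, Fos and Fosb rose 71.4-, 67.8- and 63.9-fold. Only 1 gene, the antisense RNA gene 5830468F06Rik, was at least 2-fold lower. Without Sal 2, 119 genes were higher and 2 lower. Without PTZ45 2 there were 105 higher and 4 lower, and without Sal 1, Sal 3 and PTZ45 1 the lower genes numbered 15, 27 and 32. In the same test, 726 genes were higher and 605 lower at an unadjusted p under 0.05. Values are counts divided by DESeq2 size factors (normalized counts), and fold changes, given as log2, come with their standard error (SE) and the adjusted p of the Wald test of DESeq2 over all genes tested.

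Promoters are shown first for the genes with the largest rises among those with a promoter listed, because several share motifs of the factors named above. Gm47075, Gm47088 and 1700016P03Rik, which rose more than Arl4d, had no promoter listed. The windows run from 250 bases before to 50 after the RefSeq start in GRCm38.p6, 5′ to 3′ on the strand of the gene. Capitals mark the cAMP response element (CRE) TGACGTCA, its core TGACG on either strand, the CArG box bound by SRF, and the TATA box core TATAAA. A full CRE holds the core on both strands, so its letters are counted under both motifs. The RefSeq start of Npas4 lies 345 bases from that of the annotation used for spans.
Npas4, chr19:4989922-4990221, minus strand: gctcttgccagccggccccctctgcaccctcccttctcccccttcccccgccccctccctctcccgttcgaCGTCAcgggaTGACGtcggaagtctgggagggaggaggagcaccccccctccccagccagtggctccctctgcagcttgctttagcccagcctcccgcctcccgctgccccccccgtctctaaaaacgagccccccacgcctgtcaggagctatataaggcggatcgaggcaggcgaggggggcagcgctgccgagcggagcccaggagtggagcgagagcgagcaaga
Fos, chr12:85473640-85473939, plus strand: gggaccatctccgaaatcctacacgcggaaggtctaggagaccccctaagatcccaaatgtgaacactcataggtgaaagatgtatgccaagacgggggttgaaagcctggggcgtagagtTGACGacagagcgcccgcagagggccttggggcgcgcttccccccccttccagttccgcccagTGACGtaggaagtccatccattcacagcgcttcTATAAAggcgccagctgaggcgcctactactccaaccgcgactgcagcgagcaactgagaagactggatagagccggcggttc
Fosb, chr7:19309996-19310295, minus strand: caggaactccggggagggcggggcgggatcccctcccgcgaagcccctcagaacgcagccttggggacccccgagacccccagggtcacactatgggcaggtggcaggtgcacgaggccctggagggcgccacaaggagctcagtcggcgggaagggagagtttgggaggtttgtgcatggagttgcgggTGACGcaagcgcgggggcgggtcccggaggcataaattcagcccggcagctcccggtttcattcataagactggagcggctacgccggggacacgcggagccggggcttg
Egr2, chr10:67535249-67535548, plus strand: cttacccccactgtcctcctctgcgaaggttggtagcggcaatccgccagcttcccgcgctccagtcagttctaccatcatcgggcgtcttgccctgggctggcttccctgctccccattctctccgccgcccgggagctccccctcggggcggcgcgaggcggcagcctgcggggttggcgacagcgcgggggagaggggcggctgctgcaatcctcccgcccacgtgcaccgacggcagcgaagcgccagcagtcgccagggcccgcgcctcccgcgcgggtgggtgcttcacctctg
Btg2, chr1:134079106-134079405, minus strand: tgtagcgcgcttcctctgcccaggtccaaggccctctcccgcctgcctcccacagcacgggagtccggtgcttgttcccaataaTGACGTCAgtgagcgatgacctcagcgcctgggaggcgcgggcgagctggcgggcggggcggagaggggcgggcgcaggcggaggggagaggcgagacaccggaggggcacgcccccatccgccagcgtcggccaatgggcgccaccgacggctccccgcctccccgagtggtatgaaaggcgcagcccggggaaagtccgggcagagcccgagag
Arl4d, chr11:101665291-101665590, plus strand: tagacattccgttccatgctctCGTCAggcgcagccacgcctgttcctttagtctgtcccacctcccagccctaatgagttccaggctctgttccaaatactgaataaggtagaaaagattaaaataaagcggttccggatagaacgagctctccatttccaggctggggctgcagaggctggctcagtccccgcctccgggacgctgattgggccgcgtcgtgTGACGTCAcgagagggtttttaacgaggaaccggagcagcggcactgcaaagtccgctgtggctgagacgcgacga

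Btg2 and Arl4d each held a full CRE, Npas4, Fos and Fosb held the core only, and Egr2 held none of these letters in the window. Fos also held a TATA box core. A promoter was listed for 11447 of the genes tested, among them 106 of the higher and 32 of the lower genes. The CRE core was found in 58.5% of the higher and 25% of the lower promoters, against 30.9% of all. The full CRE was found in 9.43% of the higher promoters (10 of 106), in 9.38% of the lower promoters (3 of 32) and in 3.16% of all. The core was about as common among promoters of genes that were at least 2-fold higher (57.1% of 42) as among those of smaller rises (59.4% of 64). TATAAA was found in 20.8% of the higher promoters (28.6% for rises of at least 2-fold and 15.6% for smaller ones), in 9.38% of the lower promoters and in 7.27% of all. The CArG box was found in 3 of 106 higher promoters (2.83%), 1 of 32 lower promoters and 1.28% of all. The median GC content of the promoters was 63.7% for higher, 63.5% for lower and 60.7% for all genes. These are descriptions of letters in a short window, and distal elements were outside it.

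The activator protein 1 (AP-1) factors, dimers of Fos and Jun proteins, included Fos and Fosb, both among the 3 largest rises. Of 7 members tested, 5 were called higher and 0 lower, with a median log2 fold change of 1.10 against 0.0056 over all genes tested. The counts of this and the following lists stand beside 0.939% higher and 0.236% lower over all genes tested. Fos (chromosome 12, 85473890 to 85477273) had 28.6, 29 and 63.7 normalized counts in Sal and 2976 and 2535 in PTZ45, an increase of 6.08 on the log2 scale (SE 0.48, adjusted p 4.21e-34). Fosb had 24.7, 20.1 and 45.3 in Sal and 2199 and 1667 in PTZ45, or 6.00 higher on the log2 scale (SE 0.44, adjusted p 4.64e-40). Both genes were close to silent in every Sal library, and no PTZ45 library came near a Sal library. In the 3 PTZ0 libraries Fos had 24.2 to 32.4 and Fosb 19.4 to 24.2 normalized counts. Junb rose from 224, 267 and 250 to 1560 and 1257 (log2 fold change 2.52, SE 0.13). Fosl2 and Jun, already expressed in Sal at means over 500, rose by log2 fold changes of 1.10 and 0.95. Jund, at 174 in Sal and 188 in PTZ45, was not called (log2 fold change 0.11, adjusted p 0.981), and neither was Mafk. Exons of Junb and Jun overlap a gene on the opposite strand, so that reads of that gene cannot be told apart in their counts. The same holds for other genes below, among them Dusp1, Pcdh8, Ppp1r15a, Tiparp, Zfp36, Dusp5, Dnaja1, Hsp90b1 and Rpl22l1. Among the lower genes it holds for Pcsk1n, Engase, Psd, Fkbp8, Ndufa11 and Gm42517.

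Npas4, a bHLH-PAS factor that in neurons answers to calcium, and the Nr4a orphan nuclear receptors were all raised, 4 of 4 (median log2 fold change 2.41). Npas4 (chromosome 19, 4984355 to 4990316) had 28.6, 49.1 and 77.6 normalized counts in Sal and 4028 and 3362 in PTZ45, or 6.16 higher on the log2 scale (SE 0.50, adjusted p 8.68e-32). Nr4a1 rose from 251, 290 and 405 to 2599 and 2093 (log2 fold change 2.89, SE 0.29), and Nr4a2 from 435, 511 and 506 to 1887 and 1809 (1.94, SE 0.11). Nr4a3 rose less, from 703, 766 and 906 to 1476 and 1144 (0.73, SE 0.13, adjusted p 8.44e-06, lost in 1 of 14 alternatives). The order of the 3 receptors by Sal mean was the opposite of their order by fold change. The Sal level is itself the base of the fold change, so nothing is read from this order.

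Of the zinc finger factors of the Egr, Nab and Klf families, the 4 Egr genes were higher and the other 9 were not called (4 of 13; median log2 fold change 0.32). Egr2 had 7.16, 12.6 and 14.8 normalized counts in Sal and 435 and 342 in PTZ45, or 5.11 higher on the log2 scale (SE 0.31, adjusted p 6.91e-58). Egr4 rose from 22.3, 29 and 34.2 to 285 and 238 (3.21, SE 0.26), Egr1 from 223, 301 and 399 to 1892 and 1505 (2.46, SE 0.33) and Egr3 from 384, 470 and 494 to 1776 and 1586 (1.91, SE 0.12). The lower the mean Sal level of the Egr gene, the larger was its fold change, and the ranges of Egr1 and Egr3 in Sal overlapped. As for the Nr4a genes, the Sal level is the base of the fold change, and nothing is read from this order. Klf9 and Nab1, a corepressor of Egr proteins, were not called (log2 fold changes 0.10 and 0.21, adjusted p 0.929 and 0.785).

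Other inducible transcription factors answered in part, with 4 of 22 called higher and 0 lower (median log2 fold change 0.26). Ier2 rose from 15.1, 16.4 and 24 to 165 and 138 (log2 fold change 3.03, SE 0.32). Atf3, a stress-inducible member of the ATF family, rose from 5.57, 5.04 and 7.39 to 55.1 and 41.0 (2.99, SE 0.54, lost in 1 of 13 alternatives). Tiparp, a mono-ADP-ribosyltransferase, rose by 1.24 from Sal levels of 386, 390 and 388 that hardly varied, and Arid5a by 0.69 (adjusted p 0.0453, lost in 8 of 14 alternatives). The most abundant uncalled members, Id2 and Srf, had log2 fold changes of 0.23 and 0.15. Of CREB, its Crtc coactivators and the cAMP enzymes, 0 of 20 were called by DESeq2 (median log2 fold change 0.08), and 1 of the 20 was called higher after GC correction.

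**Figure D1:**
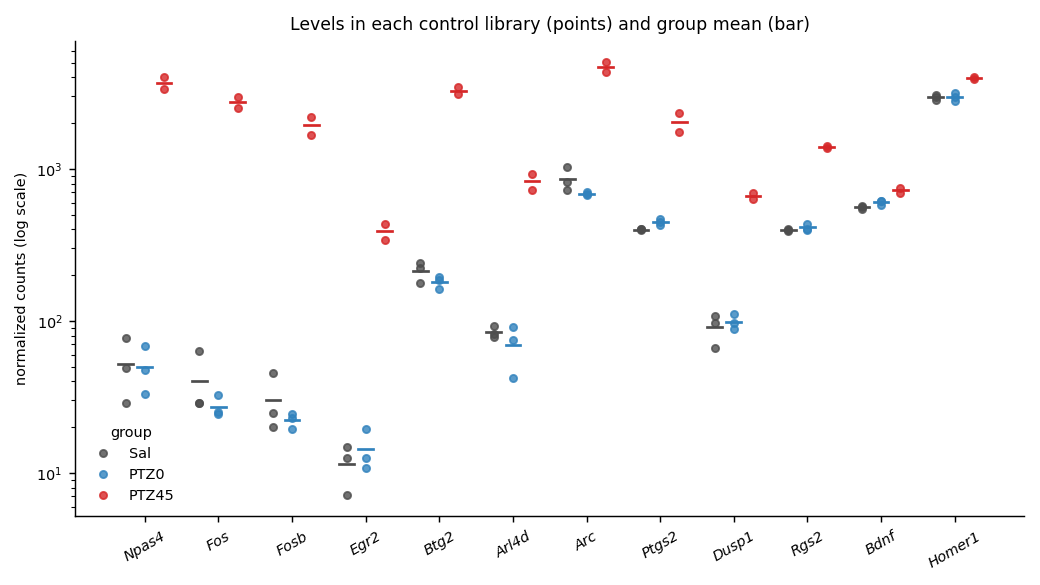
Normalized counts (log axis) of 12 genes in each Control Sal, PTZ0 and PTZ45 library, with bars for group means. PTZ45 lies above Sal and PTZ0 in every library for Npas4, Fos, Fosb, Egr2, Btg2, Arl4d, Arc, Ptgs2, Dusp1 and Rgs2, while Bdnf (log2 fold change 0.37, not called) and Homer1 (0.42, called) differ by little.

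Negative regulators of kinase signalling were raised in part. Of 16 dual-specificity MAP kinase phosphatases and Sprouty-type inhibitors, 5 were higher and 0 lower (median log2 fold change 0.29). Dusp1 rose from 108, 66.7 and 97.0 to 694 and 630 (2.84, SE 0.17). Dusp6, the cytosolic phosphatase of ERK, rose by 1.20, Errfi1, an inhibitor of the EGF receptor, by 1.13, Dusp5 by 0.83 and Spry2 by 0.53. The last 2 calls were lost in 4 and 6 of 14 alternatives. Spred1 and Dusp8 were not called, with log2 fold changes of -0.05 and -0.19. Among kinases and cytokine feedback regulators 3 of 18 were higher, and these were Trib1, a pseudokinase (log2 fold change 1.19, lost in 3 of 14 alternatives), Sik1, which restrains Crtc coactivators (0.99, lost in 3 of 14), and Plk2, which acts at active synapses. Plk2 rose from 3557, 3545 and 3594 to 6325 and 6419, a log2 fold change of 0.84 (SE 0.07). Sgk1, which also answers to glucocorticoids, was not called (0.16, adjusted p 0.856).

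The list of G protein signalling regulators held 10 tested genes, Gpr3 and a selection of Rgs genes, whose products shut off G alpha subunits. Only Rgs2 and Rgs4 were higher and 0 were lower. Rgs2 rose from 399, 393 and 394 to 1424 and 1370 (log2 fold change 1.82, SE 0.11), and Rgs4 from 2077, 1643 and 1649 to 3509 and 3094 (0.88, SE 0.11). The list median was -0.01, and Rgs17 and Rgs7, the most abundant others in the list, had log2 fold changes of 0.24 and 0.23 (adjusted p 0.595 and 0.50).

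Regulators of mRNA decay and of cell growth were called higher in 6 of 14 cases (median log2 fold change 0.60, 0 lower). Btg2, which recruits deadenylases to mRNAs, rose from 178, 239 and 224 to 3461 and 3096 (3.95, SE 0.12, adjusted p 2.51e-233). Its call had the smallest p of the comparison. Gadd45g rose from 56.5, 75.6 and 55.4 to 574 and 479 (3.10, SE 0.19). Zfp36, which targets AU-rich mRNAs for decay, rose from 17.5, 16.4 and 16.6 to 91.2 and 63.2 (2.20, SE 0.39, lost in 1 of 13 alternatives), and Gadd45b from 82.7, 74.3 and 75.7 to 187 and 171 (1.20, SE 0.22, lost in 2 of 14). Tob1 and Btg1, relatives of Btg2, were raised by 0.90 and 0.88. Ddit4 and Tob2 were not called, with log2 fold changes of -0.01 and -0.07.

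Small GTPases of the Arf-like, Ras and related families were higher in 4 of 16 cases and lower in 0 (median log2 fold change 0.18). Arl4d had 92.2, 81.8 and 78.5 normalized counts in Sal and 931 and 724 in PTZ45 (3.29, SE 0.17, adjusted p 1.47e-81). Rasl11a rose by 1.31 (lost in 3 of 14 alternatives), Arl5b by 0.59 (lost in 3) and Rheb, the activator of mTORC1, by 0.56 (lost in 2). Rhob and Arl5a were not called (log2 fold changes -0.13 and 0.05).

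Synaptic effectors were higher in 7 of 15 cases and lower in 0, with a median of 0.29. Arc (chromosome 15, 74669083 to 74672570), which removes AMPA receptors from synapses, rose from 722, 820 and 1033 to 5024 and 4362, or 2.45 higher on the log2 scale (SE 0.21, adjusted p 2.04e-28). Its gain of 3835 normalized counts was the largest of any nuclear gene called higher, ahead of Npas4 with 3643. Ptgs2, the inducible cyclooxygenase, rose from 401, 399 and 393 to 2321 and 1750 (2.35, SE 0.12), and Pcdh8, a cadherin of synapses, from 214, 251 and 289 to 877 and 575 (1.53, SE 0.18). Nptx2, a pentraxin that clusters AMPA receptors, rose by 0.90 (lost in 5 of 14 alternatives) and Rheb by 0.56. Homer1 (0.42) and Syt4 (0.29) rose by little, and the call of Syt4 was lost in 11 of 14 alternatives and after GC correction. The constitutive pentraxins Nptxr and Nptx1 were not called, at log2 fold changes of -0.05 and -0.06.

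Late response genes and neuropeptides, which classically follow the immediate early genes by hours, were higher in 2 of 18 cases and lower in 0 (median 0.09). These were Nptx2 and the granin Scg2, which rose from 2425, 2292 and 2514 to 3302 and 3614 (0.52, SE 0.09, lost in 2 of 14 alternatives). Bdnf, the activity-regulated neurotrophin, had 569, 563 and 547 normalized counts in Sal, 582, 614 and 615 in PTZ0 and 754 and 692 in PTZ45. Its groups did not overlap, as held for 32.3% of all genes tested, but with a log2 fold change of 0.37 (SE 0.11) its adjusted p was 0.0841. It was called in 3 of 14 alternatives, the edgeR test (adjusted p 0.0485) and the fits of 8 and 17 libraries (0.0119 and 0.0153), over a range of 0.0119 to 1. Counts over all exons do not separate the alternative promoters of Bdnf or the short activity-induced Homer1 isoform. Cck and Nrn1 had log2 fold changes of -0.10 and 0.09 and were not called.

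**Figure D2:**
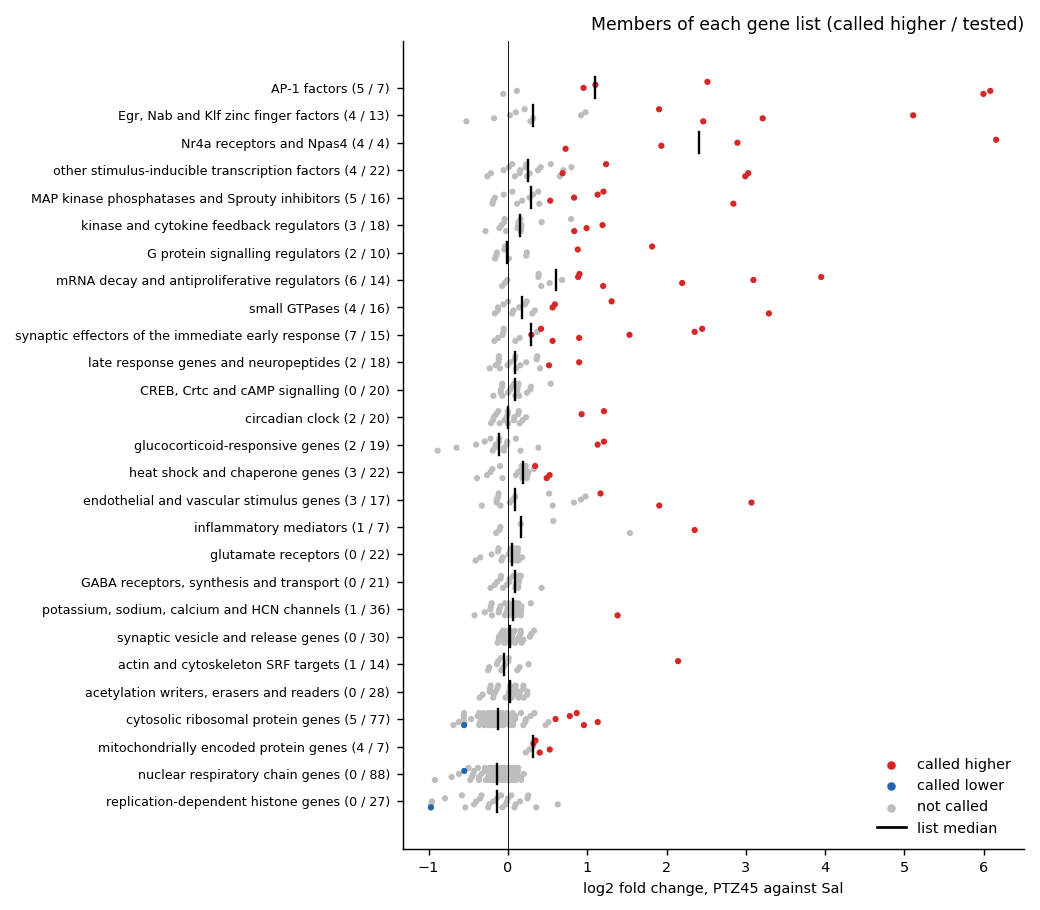
Log2 fold change (PTZ45 against Sal) of every tested member of 27 gene lists, coloured by call, with the median of each list as a black line. Called members of the regulatory lists reach beyond 2, whereas receptors, channels, vesicle and acetylation genes lie around 0 and ribosomal and respiratory chain genes slightly below it.

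Stimulus lists of other pathways contributed a few members each. Of 20 circadian clock genes, Per1 (log2 fold change 1.21, SE 0.14) and the clock repressor Ciart (0.93, SE 0.19, lost in 3 of 14 alternatives) were higher, while Clock and Tef, at 0.19 and -0.18, were not called. Of 19 glucocorticoid-responsive genes 2 were higher, Per1 and Errfi1, both of which are also immediate early genes, and the list median was -0.11. Of 22 heat shock and chaperone genes 3 were higher, Dnajb1 (0.52, lost in 6 of 14 alternatives), Dnaja1 (0.49, lost in 2) and Hsp90b1 (0.34, lost in 10). The list median of 0.18 was positive, and Hsp90ab1, the most abundant member, had a log2 fold change of 0.24 (adjusted p 0.168). After the GC correction described below, Hsp90ab1 was called higher by DESeq2 (0.28, adjusted p 0.0362), while Hsp90b1 was not called.

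Of 17 stimulus genes of endothelium and vessels 3 were higher. Ccn1, a matricellular protein, rose from 31.0, 22.7 and 26.8 to 239 and 219 (log2 fold change 3.07, SE 0.26), Apold1, an endothelial early response gene, from 59.6, 54.1 and 46.2 to 221 and 180 (1.91, SE 0.24) and Adamts1, a secreted protease, by 1.17 (SE 0.13). All 3 calls held in every alternative. Vegfa and Vcam1 had log2 fold changes of -0.12 and -0.14 and were not called. Markers of blood summed to 1585, 1730 and 1742 normalized counts in Sal and 2389 and 2139 in PTZ45, and 1 of the 6 tested, the globin gene Hbb-bs, was higher (0.62, adjusted p 9.53e-05, lost in 3 of 14 alternatives). Markers of endothelial and mural cells summed to 5095 to 5366 in Sal and 4926 to 5208 in PTZ45, with 0 of 12 called. Whether the amount of blood bears on the vascular genes was not tested. Inflammatory mediators were mostly too low to test. Of 7 with an adjusted p, only Ptgs2 was higher. Nfkbiz had 159 to 194 normalized counts in Sal and 241 to 283 in PTZ45 (0.57, adjusted p 0.0854).

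Few structural genes of neuronal transmission were called at 45 min. Few of all genes tested were called either (0.939% higher and 0.236% lower), so these small counts do not set the lists apart. By DESeq2, 0 of 22 glutamate receptor genes (median log2 fold change 0.05), 0 of 21 genes of GABA receptors, synthesis and transport (0.09), 0 of 30 synaptic vesicle genes (0.02) and 0 of 28 writers, erasers and readers of acetylation (0.03) were called. After GC correction 0 members of these lists were called either. Of 36 channel genes only Kcnj2, an inward rectifier potassium channel, was higher, from 278, 292 and 271 to 806 and 653 (1.38, SE 0.14). Of 14 actin and cytoskeletal targets of SRF only Actg1 was higher, from 19.1, 26.4 and 17.6 to 102 and 81.0 (2.15, SE 0.35, lost in 1 of 13 alternatives), while Actb was not called (adjusted p 0.998). Actg1 has processed copies elsewhere in the genome, so its counts are uncertain.

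Together the 23 function lists held 387 tested genes, of which 54 were higher and 0 lower. Over all genes tested 0.939% were higher and 0.236% lower. The lists were chosen with earlier results of these data known, so nothing is read from this total. The remaining 109 higher genes, 42 of them at least 2-fold, lay outside these lists. Chosen after their values were seen, they included Cenpa, a centromeric histone variant (log2 fold change 3.07), Tpt1 (2.42), Ppp1r15a, which reverses the phosphorylation of eIF2 alpha (2.20), and Fbl, the nucleolar methyltransferase fibrillarin (1.94), all called higher after GC correction as well. Of 77 ribosomal protein genes 5 were higher and 1 lower, with a median of -0.12. Rpl10, Rpsa, Rpl21 and Rpl22l1 rose by 1.13, 0.96, 0.87 and 0.78, from Sal means of 62.4, 91.0, 126 and 196, and each call was lost in 3 to 5 of 14 alternatives. Rplp1 fell from 1689, 1929 and 1429 to 1167 and 1126. Many genes of this family, and Tpt1, have near-identical copies and their counts are uncertain.

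By RNA class, 124 of the 163 higher genes were protein coding (0.912% of 13603 tested) and 39 were of other classes. Genes of the annotation class TEC, transcripts that still await experimental support, gave 16 (1.09% of 1469), 13 of them at least 2-fold. Antisense RNAs gave 5 (0.691% of 724), processed transcripts 5 (1.85% of 271), long intergenic RNAs 4 (0.909% of 440) and pseudogenes 3 (0.626% of 479). Sense intronic RNAs gave 4 (2.56% of 156), small nucleolar RNAs 1 of 69 (Snora31, inside Tpt1) and mitochondrial ribosomal RNA 1 of 2. Over all genes tested 0.939% were higher, and with so few calls in each class nothing is read from these differences. The median log2 fold change of the higher genes was 1.66 for TEC, 1.82 for sense intronic, 0.64 for long intergenic and 0.83 for protein coding genes.

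Of the 39 non-coding higher genes 27 (69.2%) lay inside a protein coding gene, 19 of them on its strand, against 62.3% of the 3750 non-coding genes tested. Of 22 hosts, 5 were called higher and 17 were not called, with a median log2 fold change of 0.13 over the hosts. Gm47075 and Gm47088 (chromosome 13, 93312041 to 93314055 and 93317427 to 93319065) lie inside Homer1 on its strand. Gm47075 rose from 46.1, 46.6 and 75.7 to 1284 and 1042 (4.37, SE 0.31) and Gm47088 from 24.7, 29 and 41.6 to 657 and 508 (4.20, SE 0.22). Inside Ntrk2, the gene of the BDNF receptor TrkB, C630044B11Rik on the same strand rose from 54.9, 46.6 and 73.0 to 535 and 426 (3.03, SE 0.20), and Gm47423 on the opposite strand from 46.9, 41.6 and 72.0 to 375 and 267 (2.58, SE 0.24). Ntrk2 itself, at means of 7725 and 8201, was not called (0.08, SE 0.07, adjusted p 0.909). Gm38257 inside Arl5b rose by 2.68 while Arl5b rose by 0.59. Inside Slc16a1, a lactate transporter that was not called (0.24, adjusted p 0.538), Gm43585 and Gm43581 rose by 2.04 and 1.73. The strand used in counting is not given in the sources used here, so a non-coding gene and a host on the other strand cannot be told apart. For the 19 on the strand of the host, no strand setting would separate their reads from host RNA that covers the same bases. Whether they are transcripts of their own was not tested.

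Of the 39, 9 (23.1%) lay within 20 kb of a higher coding gene, against 1.44% of the non-coding genes tested. However, 7 of the 9 lay inside or overlapped that gene, so that they share its locus and may share its reads. The other two were Gm37824 beside Pter and mt-Rnr2 beside mt-Nd2. Among the other classes, the antisense gene Gm47938 opposite Cnnm1 rose by 2.73, Gm30177 opposite Nrn1 by 1.73, the sense intronic gene Gm17024 in Ifrd1 by 1.65, and the long intergenic gene Gm15721 by 1.87. The calls of Gm30177 and Gm17024 were lost in 3 alternatives and that of Gm15721 in 6.

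The processed transcript 1700016P03Rik (chromosome 11, 75172560 to 75177633) is the host of Mir212 and Mir132, which RefSeq places in it on the same strand at 75173388 to 75173478 and 75173682 to 75173747. Both miRNAs are known to be raised by neuronal activity and have been linked to dendrite growth. Their mature 3p strands are shown, since they share a seed (bases 2 to 8, in capitals) and so could bind the same targets.
mmu-miR-212-3p: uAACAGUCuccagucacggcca
mmu-miR-132-3p: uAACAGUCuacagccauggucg

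1700016P03Rik had 13.5, 16.4 and 17.6 normalized counts in Sal, 8.97, 3.60 and 11.7 in PTZ0 and 226 and 183 in PTZ45, or 3.70 higher on the log2 scale (SE 0.31, adjusted p 2.41e-30). It is the transcript that was counted, not the mature miRNAs. Its exons overlap those of Ovca2 on the opposite strand, which rose from 137, 126 and 133 to 691 and 629 (2.32, SE 0.15), so the reads of these neighbours cannot be told apart.

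**Figure D3:**
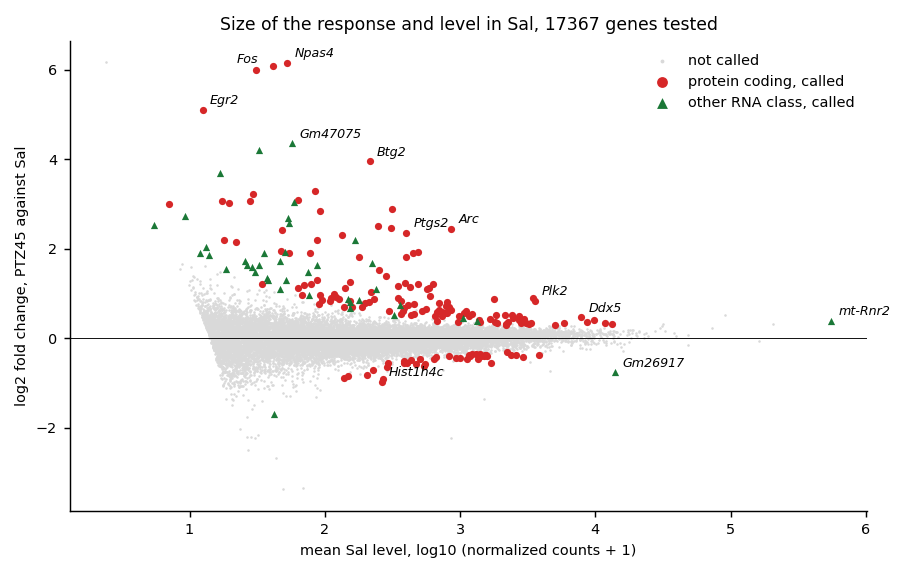
Log2 fold change (PTZ45 against Sal) against the mean Sal level (log10 of normalized counts + 1) for the 17367 genes tested, with called protein coding genes as red circles and called genes of other classes as green triangles. The largest rises start from low Sal levels, and among genes above 1000 normalized counts in Sal 36 higher and 19 lower calls are all smaller than 2-fold.

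By size, 30 of the 163 rises were under 0.5 on the log2 scale, 57 were 0.5 to 1, 43 were 1 to 2, 18 were 2 to 3, 9 were 3 to 4 and 6 were at least 4 (Npas4, Fos, Fosb, Egr2, Gm47075 and Gm47088). The 76 genes that rose at least 2-fold and the 87 that rose less are described side by side, as the sizes chose them. The former had a median Sal level of 57.1 normalized counts, a median genomic span of 3.89 kb and a median exonic GC content of 49.2%. The latter had 773 normalized counts, 8.83 kb and 44.5%. The 76 genes together took 0.0856% to 0.0926% of all normalized counts in Sal and 0.438% and 0.364% in PTZ45. All 76 were higher in both PTZ45 libraries than in all 3 PTZ0 libraries, as were 160 of all 163 higher genes and 17.7% of all genes tested. Of the 41 lower genes 34 were below all PTZ0 libraries in both PTZ45 libraries, against 16.1% of all genes tested. The same PTZ45 libraries chose these genes, so nothing is read from these counts. The largest gain in counts of any called gene lay outside these 76. The mitochondrial ribosomal RNA mt-Rnr2 rose from 476942, 549119 and 635838 to 679435 and 772748, or by 0.39 on the log2 scale (SE 0.11, adjusted p 0.0258). That call was lost in 9 of 14 alternatives. How far the amount of ribosomal RNA left in each total RNA library bears on this gain was not tested. The genes mt-Nd4 and mt-Nd5 rose by 0.32 and 0.35. Of 7 mitochondrially encoded protein genes tested 4 were higher (mt-Nd6, mt-Nd2, mt-Nd5 and mt-Nd4), all of low GC content (34.1% to 37.1%), and 0 were called after GC correction.

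Called genes were short. The median genomic span, from the first to the last base of the gene, was 5.80 kb for higher, 6.96 kb for lower and 19.2 kb for all genes tested. Among protein coding genes whose Sal mean reached 50 normalized counts, 3.48% of those under 5 kb were higher (34 of 976), 2.02% of those of 5 to 10 kb, 1.11% of 10 to 20 kb, 0.560% of 20 to 50 kb, 0.213% of 50 to 100 kb and 0.145% of those of at least 100 kb (3 of 2068). For rises of at least 2-fold the share went from 1.43% (14 of 976) to 0 of 2068. Lower genes went from 1.43% to 0 of 2068 before GC correction. After it, the higher genes from the shortest to the longest class numbered 31, 27, 24, 16, 1 and 2, and the lower genes 2, 0, 0, 1, 0 and 1, so the order was no longer seen for the lower genes.

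**Figure D4:**
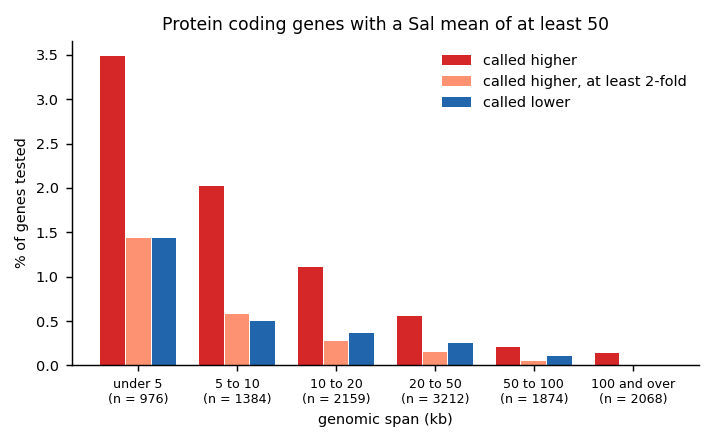
Share of protein coding genes with a Sal mean of at least 50 normalized counts that were called higher, called higher by at least 2-fold or called lower (%), by genomic span in kb, with the number tested under each class. These are calls before GC correction, whose share falls with span for all 3, from 3.48% to 0.145% for the higher genes.

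The falls were smaller and fewer, and 4 of the 41 were still called after the GC correction described below. Of the 41 lower genes 24 changed by less than 0.5 on the log2 scale and 16 by 0.5 to 1, and 39 were protein coding. Hist1h4c, a replication-dependent histone H4 gene, fell from 313, 264 and 212 to 138 and 131 (-0.97, SE 0.20, adjusted p 0.000166), and 1 of 27 histone genes tested was lower (median -0.14). Histone genes of 1 type have near-identical copies, so these counts are uncertain. Pcsk1n, an inhibitor of the prohormone convertase PCSK1, fell from 280, 292 and 230 to 169 and 113 (-0.91, SE 0.20), and Gcnt1, a glycosyltransferase, from 132, 111 and 171 to 84.9 and 63.2 (-0.90, SE 0.26). Gm26917 (chromosome 17, 39843013 to 39846341), placed by its annotation in the class of long intergenic RNA, fell from 13322, 14641 and 14302 to 9215 and 7431 (-0.76, SE 0.09). Its difference in means of -5766 was the largest among the lower genes. Its exonic GC content was 69.1%. Which RNA of this locus its reads came from in these total RNA libraries was not tested. These 4 were the lower genes with a mean of at least 50 that were still called after GC correction, with log2 fold changes of -0.99, -0.75, -0.98 and -0.47. Their calls were lost in 1, 4, 10 and 2 of 14 alternatives. In PTZ0, Hist1h4c had 168 to 203, Pcsk1n 154 to 264, Gcnt1 54.7 to 124 and Gm26917 9552 to 12159 normalized counts, and those of Pcsk1n and Gcnt1 overlapped PTZ45.

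The other lower genes named by the rule were Engase (-0.84), C1qtnf4 (-0.83), Rprml (-0.71) and Gm42517 (-0.64), with exonic GC contents of 58.2%, 70.7%, 64.1% and 66.4%. By loss in counts, Ckb, the brain creatine kinase, fell from 3992, 3997 and 3436 to 2998 and 2910 (-0.37, SE 0.09), and Psd, Aatk and Fkbp8 fell by 0.43, 0.37 and 0.38 on the log2 scale. Ndufa11, a subunit of respiratory complex I, fell by 0.55 and was the 1 of 88 nuclear respiratory chain genes called. The antisense gene 5830468F06Rik had 42.9, 45.3 and 34.2 normalized counts in Sal and 18.1 and 6.66 in PTZ45 (-1.69, SE 0.49, adjusted p 0.0475, lost in 8 of 13 alternatives). After GC correction 0 of these 10 genes were called by DESeq2, and over all genes 5 were called lower. A lost call does not show that the change was gone. The corrected log2 fold change of 5830468F06Rik was -1.66 (adjusted p 0.0881) and that of Engase was -0.66.

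Exonic GC content moved with the fold change across all genes. The median GC content was 46.5% for higher, 59.0% for lower and 48.0% for all genes tested. Over 13066 genes whose mean reached 50 normalized counts, the rank correlation (Spearman) between GC content and log2 fold change was -0.57. It runs across genes of the same 5 libraries, and genes are not independent replicates. Among genes under 40% GC 1.60% were higher and 0 of 1745 lower, whereas among genes of at least 60% GC 1.02% were higher and 3.87% lower (19 of 491). The trend was read in each library as the log2 deviation from the Sal mean at 60% minus that at 40% GC. It was -0.23 and -0.44 in PTZ45 1 and 2, against -0.10, 0.11 and -0.01 in Sal and 0.04, -0.07 and -0.17 in PTZ0. Both PTZ45 libraries lay below all other control libraries. In lane 4, which also held the 3 unkindled CBP-ifKO Sal libraries, these had -0.27, -0.03 and 0.03. The part of lane in the trend was not tested.

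After the smooth GC trend of each library was removed, 150 genes were higher and 5 lower. Of the 163 higher genes 138 (84.7%) were still called, and of the 41 lower genes 4 (9.76%). The median log2 fold change of these 41 was -0.47 before and -0.27 after correction. Of the genes at least 2-fold higher 74 of 76 (97.4%) were still called, with a median log2 fold change of 1.91 both before and after, and of the smaller rises 64 of 87 (73.6%). The 25 rises that lost their call after correction included mt-Rnr2, the 4 mitochondrially encoded genes, Syt4 and Hsp90b1. The count of higher members in each function list differed by at most 1 after correction. The members could differ, as among chaperones, where Hsp90b1 lost its call and Hsp90ab1 was newly called. AP-1 factors had 5, mRNA decay regulators 6 and MAP kinase inhibitors 5 higher members, and synaptic effectors went from 7 to 6.

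**Figure D5:**
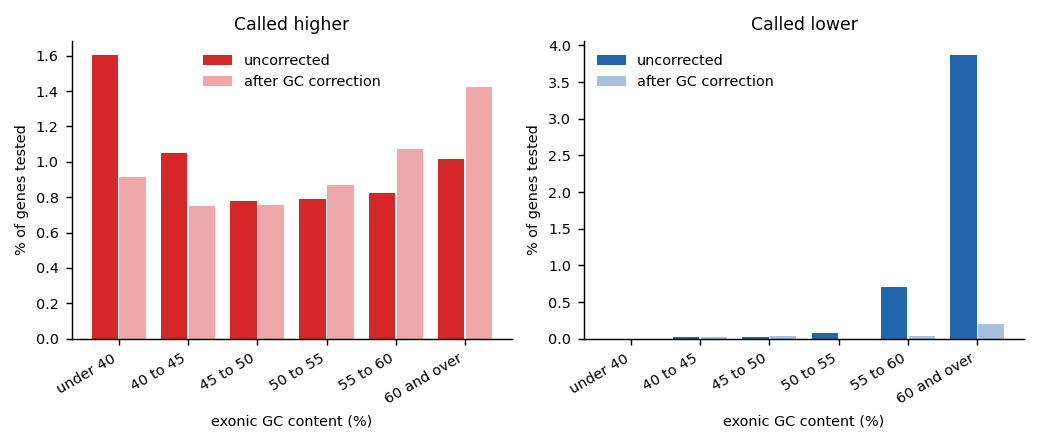
Share of tested genes called higher (left) and lower (right) in PTZ45 (%), by exonic GC content, before and after correction for the GC trend of each library. Before correction 3.87% of genes of at least 60% GC are lower, and after it the lower calls nearly vanish (5 over all classes), while the higher calls go from 28 to 16 genes under 40% GC and from 5 to 7 at 60% and over.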

How the data were processed

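Total RNA of the hippocampus was sequenced (single-end reads). According to the methods and processing notes of the study, the authors trimmed reads with Trim Galore 0.6.4, checked them with FastQC 0.11.8, aligned them to GRCm38 with STAR 2.6.1, kept uniquely placed reads by mapping quality and counted reads in exons of the Ensembl annotation. The authors deposited raw counts per gene, with no normalization. The strand setting is not given in the sources used here. A further count column (1), named like those of Control PTZ45, the group of 2 libraries, matched no sample and was left out throughout.

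Groups came from the labels. Control PTZ45 (2 libraries) and Control Sal (3) were compared with the two-sided Wald test of DESeq2 1.42.0 in R 4.3.3, as in the study, with a call at a Benjamini-Hochberg adjusted p under 0.05. Genes without an adjusted p (independent filtering or Cook's distance) were not counted as tested. Printed levels are counts divided by size factors from 1 scaling over the 8 control libraries, and fold changes come from the 5-library fit. Replicates are single mice, and p-values measure the spread between these few libraries. GC content, span and class came from GENCODE annotation of GRCm38, and promoters and miRNAs from RefSeq GRCm38.p6.

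The 14 alternatives were edgeR 4.0.16, TMM size factors, a filter keeping genes that reached 10 counts in 2 or more libraries, fits of the 8 control and of all 17 libraries, a loess GC correction (span 0.5, genes with a mean of at least 20), 1 surrogate variable (sva 3.50.0), a block for the replicate number with and without the GC correction, and each library left out in turn. The DESeq2 and GC steps were tested on simulated data. The members and gene lists were chosen with earlier results of these data known. Named genes were the 12 largest rises and 8 largest falls with a mean of at least 50, the 5 largest gains and losses in counts, up to 4 called and 2 uncalled members of each list, up to 4 genes of each non-coding class, falls still called after GC correction, and Crebbp, Fos, Npas4, Arc and Bdnf. Other genes were chosen after their values were seen, as is said where they appear, except hosts and neighbours of named genes. Further list members given with values (Jun, Tob1, Btg1, Spry2, Syt4, Rplp1, Hbb-bs and Ttr) also lie outside this rule. The values of 1 gene and of what lies in it are not reported here.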

Additional observations from a re-analysis of the deposited data

How the results depend on the processing

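The higher genes numbered 163, and 134 to 239 under the alternatives that kept all 5 libraries without a block. The lower genes numbered 41, but 20 with 1 surrogate variable, 5 after GC correction and 90 in the fit of the 8 control libraries. With the replicate block 69 were higher (68 of them among the 163) and 4 lower, and with the block and GC correction 70 and 1. The shared numbers are not known to pair the mice. Deviations of same-numbered libraries from their group means correlated at -0.15 and -0.13, over only 2 pairs. By the numbers in the column names PTZ45 2 would go with Sal 3 (-0.033). Deviations of 2 PTZ45 libraries from their own mean mirror each other, so these correlations are not independent and cannot decide the pairing. Leaving out each library gave 105 to 137 higher and 2 to 32 lower genes. At least 2-fold lower was 1 gene, but 2 with the surrogate variable, 0 after GC correction, 8 by edgeR, 5 in the fit of all 17 libraries and 3 in that of the 8 controls, and 0 to 4 when libraries were left out. The cause of these shifts was not tested. The correlation of fold change with GC content across genes turned from -0.57 to 0.00760 with the block and GC correction, which removes that trend by construction. Depth and 2 PTZ45 libraries limit what can be called among low genes.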

Other observations

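Chosen after their values were seen, some genes varied between libraries of 1 group. The ribosomal pseudogene Rps3a3 had 0.80, 2.52 and 0.92 normalized counts in Sal, 184, 1.20 and 188 in PTZ0 and 198 and 1.11 in PTZ45, and its log2 fold change of 6.17 was not called (adjusted p 0.154 by DESeq2). Ttr, the transthyretin of the choroid plexus, had 183, 10013 and 329 in Sal, 791, 22815 and 509 in PTZ0 and 562 and 427 in PTZ45.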
